A study of Homo sapiens with 9 samples.

Results

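The genes described here each have a probe that was detected in both the AMOT knockdown and the YAP knockdown and undetected in control HEK293 cells, although another probe of the same gene was in some cases detected there. HEK293 is a line derived from human embryonic kidney. Expression was measured on 9 bead arrays of total RNA: 3 from HEK293 cells with a hairpin against AMOT, 3 from cells with a hairpin against YAP1, and 3 from wild-type HEK293 controls, from 3 experiments per group. The titles of the hairpin samples say knockout, their sources name an shRNA and the series text says knockdown, the word used here. No labelled group carries a control hairpin, whether a group holds 1 hairpin or several is not given, and effects of a hairpin vector and of lowering its target cannot be told apart.

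A probe was taken when its detection p-value, the chance of such a signal among negative control beads, was above 0.05 on all 3 control arrays and under 0.01 on all 6 knockdown arrays. This held for 132 of the 47231 probes of the array. Of these, 101 were among the 15467 probes with 1 gene symbol in the authors' normalized table, which is 0.653% of those probes and 16.1% of the 628 of them that were undetected on all controls. The rule leaves out a set of gene families and single genes by symbol, such as keratin-associated proteins and axonemal dyneins, which removed 12 of these probes and left 89 member probes of 87 genes, of 11629 named genes in all. CPEB1 and PAQR6 had 2 member probes each. Detection in control cells and in both knockdowns chose these probes, so levels against the controls are given as a description and were not tested. The difference between the knockdowns was not used by the rule and was tested with limma across all 22375 tested probes.

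Angiomotin, the product of AMOT, is a scaffold of cell junctions and the actin cortex that binds the coactivator YAP and can hold it outside the nucleus. YAP has no DNA-binding domain of its own and acts mainly through TEAD factors, under control of the Hippo kinases that phosphorylate it. In bulk RNA such as this, fewer cells that express a gene and less RNA per cell cannot be told apart. A gene that is silent in a cell line gives a bead array no signal above its negative controls, so a probe that moves from undetected to detected marks a transcript that was at or under the limit of the assay and not necessarily absent.

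The targets were lowered as labelled. AMOT had log2 levels of 9.93, 10.04 and 10.20 in AMOT knockdown cells and 13.65, 13.71 and 13.75 in YAP knockdown cells, against 14.32, 14.31 and 14.20 in control cells. YAP1 had 8.78, 8.78 and 8.92 in YAP knockdown cells and 10.47, 10.51 and 10.73 in AMOT knockdown cells, against 10.61, 10.70 and 10.63 in control cells. AMOT was thus also lower in YAP knockdown cells than in control cells (log2 difference -0.57, limma adjusted p = 0.0017). YAP1 did not pass between AMOT knockdown and control cells (-0.08, limma adjusted p = 0.574). Arrays of a group correlated at 0.988 to 0.994 across probes. Of the 12 kidney lineage markers examined, SIX2, WT1 and LRP2 had a named tested probe, and all 3 were detected on all arrays of every group. Their summed linear level was 364 to 419 in AMOT knockdown cells and 263 to 298 in YAP knockdown cells, against 333 to 421 in control cells. That of the 4 measured of 9 epithelial markers (EPCAM, CDH1, KRT8 and KRT18) was 1066 to 1116 in AMOT knockdown cells and 938 to 1130 in YAP knockdown cells, against 659 to 745 in control cells. KRT19, CLDN4, CLDN7, KRT5 and KRT14 had no named tested probe, and the part of these markers in the results was not tested.

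Detection depends on each array's own background, and that background was not the same in all arrays. The lowest raw signal with a detection p under 0.05 was 195.9, 187.1 and 179.9 in AMOT knockdown cells and 192.7, 193.5 and 186.4 in YAP knockdown cells, against 198.6, 223.0 and 201.4 in control cells. The control limits thus lay above all 6 knockdown limits, most of all in control 2. The number of probes with a detection p under 0.05 was 20827, 20876 and 22187 in AMOT knockdown cells and 20866, 21123 and 21709 in YAP knockdown cells, against 19831, 20397 and 20257 in control cells. How far these limits set the number of member probes was not tested. The rule chose the members on these same signals, so the values that follow are a description and cannot decide it. The raw signals of 83 of the 89 member probes lay above all 3 controls on all 6 knockdown arrays, and the 6 that overlapped were those of GFRA2, LRCH4, MYOZ1, ROR2, SPTBN4 and TMEM200A. After normalization all 89 lay above, by 0.26 to 2.57 on the log2 scale between the lowest knockdown and the highest control array, as did 15.2% of all tested probes. When every array was held to 1 common normalized limit, 69 of the 89 still met the rule.

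**Figure D1:**
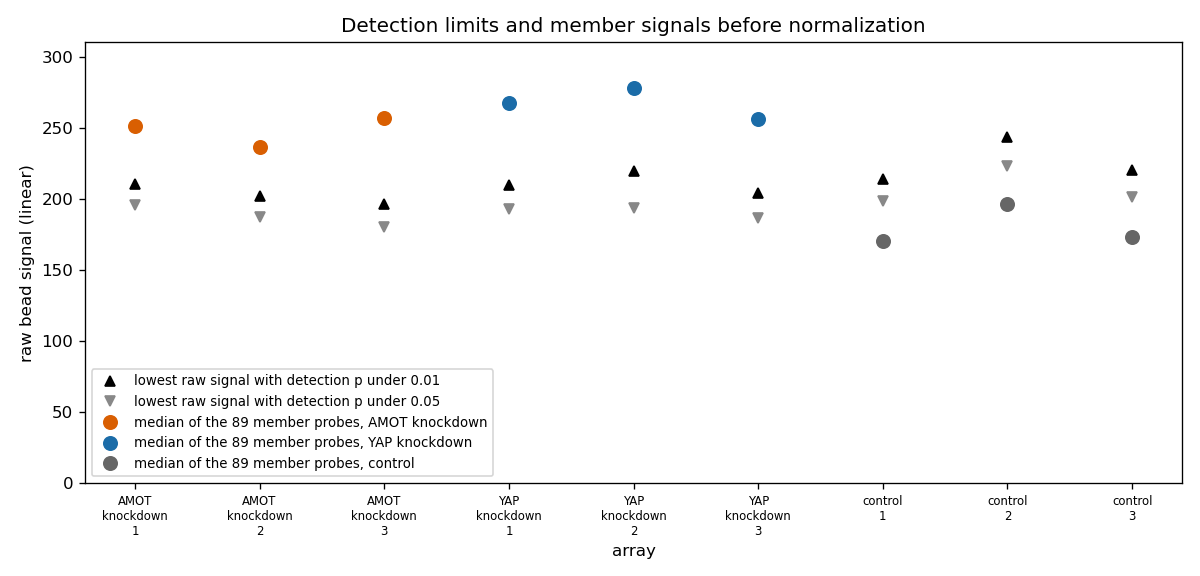
Raw bead signal (linear scale, vertical axis) on each of the 9 arrays (horizontal axis). Triangles give the lowest raw signal with a detection p under 0.01 or under 0.05, and circles the median raw signal of the 89 member probes. Member medians were 251, 237 and 257 in AMOT knockdown cells and 267, 278 and 256 in YAP knockdown cells, above the limits of their arrays, against 170, 196 and 173 in control cells, below theirs.

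The opposite pattern was rare. Turned round, so that a probe had to be detected at under 0.01 on all controls and undetected on all 6 knockdown arrays, the rule found 5 named probes, 0.0323% of the 15467. With 0.05 on both sides, 172 probes came on and 11 went off after the same exclusions. Under the common normalized limit the counts were 71 and 10, so the excess of probes that came on was smaller there. The mirrored rule asks for silence on 6 arrays and detection on 3, and the rule itself the reverse, so the counts are not of equal stringency.

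The members were dim. Their median normalized log2 level was 6.79, 6.78 and 6.86 in AMOT knockdown cells and 6.98, 7.03 and 6.90 in YAP knockdown cells, against 5.38, 5.49 and 5.41 in control cells. The mean level of all tested probes over the 6 knockdown arrays had a median of 8.37. Since the control level of a member is only known to lie under the detection limit, its fold is a lower bound: the knockdown mean over the mean of the control limits or, where higher, of the probe's own signal. The bounds ran from at least 1.19-fold to at least 7.60-fold in AMOT knockdown cells (median 1.75) and from at least 1.27-fold to at least 6.56-fold in YAP knockdown cells (median 2.05). They reached 2-fold for 32 probes in AMOT knockdown cells, 48 in YAP knockdown cells and 25 in both. They reached 4-fold in both for 4 probes, those of PLA2G4C, PAQR6, KRCC1 and CACNG6. The offset and the background correction hold these dim values together, and the size of a bound depends on both.

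Some members stood right at the edge of the rule. SEC31B had a detection p of 0.0519 on one control array, and its raw signals were 302, 333 and 334 in AMOT knockdown cells and 343, 305 and 361 in YAP knockdown cells, against 175, 223 and 186 in control cells. ERC2 and SPTBN4 reached detection p-values of 0.00909 on a knockdown array, and ERC2 and MICAL1 came down to 0.0545 on a control array. Just outside stood SOX3, BEND5, FOXC2 and ODAD3, each with a highest knockdown detection p of 0.0104. Of these SOX3, a neural progenitor transcription factor, had raw signals of 363, 261 and 334 in AMOT knockdown cells and 221, 209 and 210 in YAP knockdown cells, against 188, 195 and 200 in control cells.

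The 4 probes with the highest bounds and UNC5A, a member with a strong difference between the knockdowns, were looked up in RefSeq (GRCh38.p14) to show what lies at their starts. The windows run from 250 bases before to 50 bases after a listed start, and PLA2G4C is not among them. That start is the first base of the gene for PAQR6, KRCC1 and UNC5A, whereas for CACNG6 it lies 488 bases inside the gene as the gene table gives it. Capitals mark matches on either strand to GGGCGG, the GC box bound by SP factors, and to CAGCACC, part of the RE1 element bound by the neuronal gene repressor REST. They are matches of letters and were not shown to be sites.
PAQR6, chr1:156248007-156248306, minus strand: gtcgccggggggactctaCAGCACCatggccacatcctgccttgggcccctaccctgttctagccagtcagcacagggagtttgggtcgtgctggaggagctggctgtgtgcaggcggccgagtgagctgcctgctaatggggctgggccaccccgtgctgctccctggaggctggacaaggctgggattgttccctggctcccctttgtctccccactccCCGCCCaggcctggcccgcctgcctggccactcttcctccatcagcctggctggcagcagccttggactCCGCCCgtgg
KRCC1, chr2:88055734-88056033, minus strand: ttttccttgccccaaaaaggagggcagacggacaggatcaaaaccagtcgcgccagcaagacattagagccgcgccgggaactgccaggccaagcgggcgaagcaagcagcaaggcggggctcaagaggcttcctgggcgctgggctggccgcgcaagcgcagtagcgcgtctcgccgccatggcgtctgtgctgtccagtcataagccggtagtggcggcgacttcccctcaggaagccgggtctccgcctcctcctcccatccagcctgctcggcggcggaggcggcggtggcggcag
CACNG6, chr19:53991387-53991686, plus strand: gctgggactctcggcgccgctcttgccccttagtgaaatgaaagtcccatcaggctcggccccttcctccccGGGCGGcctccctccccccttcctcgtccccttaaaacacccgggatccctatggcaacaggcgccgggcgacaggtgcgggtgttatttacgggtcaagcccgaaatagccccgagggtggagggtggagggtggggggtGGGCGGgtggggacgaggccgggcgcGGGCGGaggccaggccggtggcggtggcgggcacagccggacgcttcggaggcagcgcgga
UNC5A, chr5:176810309-176810608, plus strand: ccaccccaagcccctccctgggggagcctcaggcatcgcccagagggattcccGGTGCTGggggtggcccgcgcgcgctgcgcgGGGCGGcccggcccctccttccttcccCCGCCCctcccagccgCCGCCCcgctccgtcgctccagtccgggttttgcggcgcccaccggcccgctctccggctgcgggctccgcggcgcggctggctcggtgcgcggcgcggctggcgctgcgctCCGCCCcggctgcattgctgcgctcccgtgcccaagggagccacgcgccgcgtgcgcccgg
The window of PAQR6 was poor in CpG, with an observed to expected ratio of 0.292, against 0.854 for KRCC1, 0.783 for CACNG6 and 0.918 for UNC5A. UNC5A had the highest GC content of the 4, 80.7%. Both PAQR6 and UNC5A held CAGCACC or its reverse complement, KRCC1 held none of the 8 motifs searched, and CACNG6 held GC boxes alone. The windows of SEC31B, TMEM86B and PLPP7, also among the highest bounds, held none of the 8 and are not shown. Over the 61 member genes with a window, CAGCACC was in 8.20%. It was in 7.23% of named genes and 8.59% of other named genes with every probe undetected on all controls.

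PLA2G4C (chr19:48047846-48110817) encodes a cytosolic phospholipase A2 that, unlike its relatives, does not need calcium. Its log2 levels were 9.01, 8.88 and 8.73 in AMOT knockdown cells and 8.74, 8.78 and 8.38 in YAP knockdown cells, against 5.36, 5.85 and 5.65 in control cells, at least 7.60-fold and 6.43-fold higher than the control limit. The 2 knockdowns overlapped.

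PAQR6, a membrane progestin receptor, was seen by 2 probes. The brighter gave log2 levels of 8.63, 8.64 and 8.15 in AMOT knockdown cells and 8.33, 8.44 and 8.51 in YAP knockdown cells, against 5.28, 5.66 and 5.19 in control cells. The other gave 7.94, 8.20 and 7.91 in AMOT knockdown cells and 8.06, 7.95 and 7.75 in YAP knockdown cells, against 5.08, 5.26 and 5.11 in control cells. On both probes the knockdowns overlapped, with lower bounds of 5.77-fold and 4.20-fold in AMOT knockdown cells and 5.58-fold and 3.93-fold in YAP knockdown cells.

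KRCC1 is a lysine-rich coiled-coil protein of which little is described. Its levels were 8.46, 8.32 and 8.48 in AMOT knockdown cells and 8.06, 8.26 and 8.07 in YAP knockdown cells, against 5.38, 5.58 and 5.30 in control cells, at least 5.54-fold and 4.55-fold higher. All AMOT knockdown arrays lay above all YAP knockdown arrays, but the difference of 0.28 (log2, SE 0.11) did not pass the adjusted test (limma adjusted p = 0.106).

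**Figure D2:**
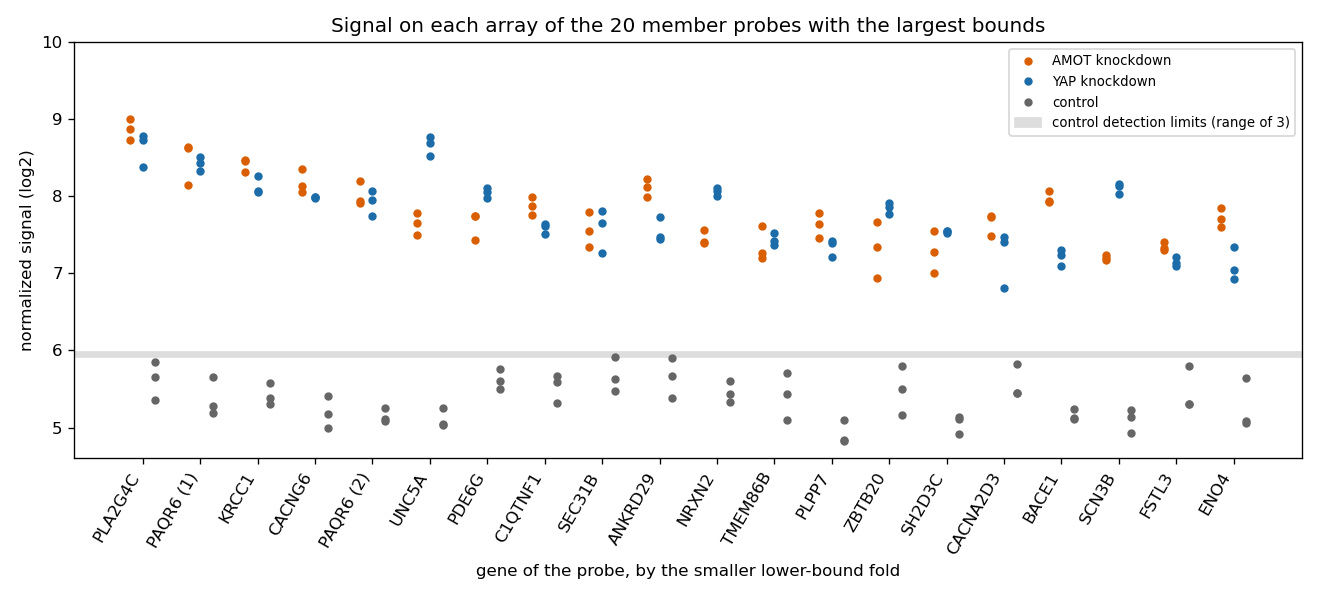
Normalized log2 signal (vertical axis) on each array for the 20 member probes with the highest lower bounds, ordered by the smaller of their 2 bounds (horizontal axis, gene of the probe). Each point is 1 array of the AMOT knockdown, the YAP knockdown or the control, and the grey band is the range of the 3 control detection limits. All control points lie at or under the band and all knockdown points above it, and the knockdowns did not overlap for 14 of the 20 probes. Of these 14, 7 passed the adjusted test between the knockdowns. ANKRD29, BACE1 and ENO4 were higher in AMOT knockdown cells, and UNC5A, PDE6G, NRXN2 and SCN3B higher in YAP knockdown cells. Among all tested probes, 37.7% did not overlap between the knockdowns and 17.5% passed.

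Genes were sorted by their known roles after the members were known. The ion channel group held 8 genes: channel subunits and the proteins that anchor or assemble channels in the membrane. Of these, 4 were higher in YAP knockdown cells than in AMOT knockdown cells, none was higher in AMOT knockdown cells and 4 did not pass. Only SCN3B among the genes that passed is a channel subunit, whereas SPTBN4, TMEM35A and ANK1 are anchoring or assembly proteins. In the channel family defined by symbol, 1 of the 4 member probes was higher in YAP knockdown cells. The count thus depends on which genes were put in the group. Over all tested probes 17.5% passed in either direction, 8.62% higher in AMOT knockdown cells and 8.84% higher in YAP knockdown cells. These shares belong beside the counts of every group below, which are small and were not tested as groups.

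CACNG6, a gamma subunit of voltage-gated calcium channels, had 8.06, 8.36 and 8.13 in AMOT knockdown cells and 7.99, 8.0 and 7.98 in YAP knockdown cells, against 5.18, 4.99 and 5.41 in control cells. CACNA2D3, an alpha-2-delta subunit of the same channels, had 7.74, 7.73 and 7.48 in AMOT knockdown cells and 6.81, 7.47 and 7.40 in YAP knockdown cells, against 5.45, 5.44 and 5.83 in control cells. Neither differed between the knockdowns in the adjusted test (limma adjusted p = 0.338 and 0.155). SCN3B, a beta subunit of voltage-gated sodium channels, did. It had 7.17, 7.23 and 7.19 in AMOT knockdown cells and 8.14, 8.16 and 8.04 in YAP knockdown cells, against 5.23, 4.93 and 5.13 in control cells, a log2 difference of AMOT minus YAP knockdown of -0.91 (SE 0.10, limma adjusted p = 0.000495).

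SPTBN4, the beta-IV spectrin that holds sodium channels at axon initial segments, lay much nearer the limit in AMOT knockdown cells. Its levels were 6.25, 6.78 and 6.14 in AMOT knockdown cells and 7.21, 7.41 and 7.48 in YAP knockdown cells, against 5.86, 5.77 and 5.45 in control cells, a difference of -0.98 (SE 0.18, limma adjusted p = 0.00571). A second probe of SPTBN4 differed by -0.08 (SE 0.20, limma adjusted p = 0.847) and overlapped between the knockdowns. TMEM35A, a chaperone for the assembly of nicotinic acetylcholine receptors, had 6.16, 6.29 and 6.25 in AMOT knockdown cells and 7.03, 7.20 and 6.70 in YAP knockdown cells, against 5.73, 5.45 and 5.90 in control cells (-0.74, SE 0.15, limma adjusted p = 0.00999). ANK1, an ankyrin that ties spectrin to membrane proteins, differed by -0.57 (limma adjusted p = 0.0171). SCN9A, the sodium channel of pain-sensing neurons, and HTR3A, a serotonin-gated channel, overlapped between the knockdowns, with bounds of 1.57-fold to 1.80-fold.

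The nerve cell surface, synapse and granule group held 11 genes. Probes of CHGB, SCG3 and NMNAT2 also met the detection rule but were left out by symbol, so the group and its counts do not include them. In 4 of the 11 genes the YAP knockdown was higher, in 1 the AMOT knockdown was higher, and 6 did not pass. The shares of all tested probes were 8.84% and 8.62%. UNC5A, a receptor for the axon guidance cue netrin, had 7.78, 7.50 and 7.65 in AMOT knockdown cells and 8.77, 8.52 and 8.69 in YAP knockdown cells, against 5.03, 5.05 and 5.26 in control cells. The knockdowns did not overlap, and the difference was -1.02 (SE 0.12, limma adjusted p = 0.000545). NRXN2, a presynaptic adhesion protein, had 7.39, 7.56 and 7.40 in AMOT knockdown cells and 8.01, 8.11 and 8.07 in YAP knockdown cells, against 5.43, 5.33 and 5.60 in control cells (-0.61, SE 0.10, limma adjusted p = 0.00396). ERC2, a scaffold of the presynaptic active zone, had 6.24, 6.91 and 7.0 in AMOT knockdown cells and 7.60, 7.48 and 7.47 in YAP knockdown cells, against 5.42, 5.52 and 5.92 in control cells (-0.80, SE 0.20, limma adjusted p = 0.0241). LY6H, a membrane-anchored protein of brain that binds nicotinic receptors, was also higher in YAP knockdown cells (-0.56, limma adjusted p = 0.0224).

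BACE1, the beta-secretase that cleaves the amyloid precursor protein, went the other way. It had 7.94, 7.93 and 8.06 in AMOT knockdown cells and 7.23, 7.30 and 7.10 in YAP knockdown cells, against 5.24, 5.13 and 5.12 in control cells, a difference of 0.76 (SE 0.10, limma adjusted p = 0.000923), the highest of any member. On their member probes OLFM1, PCLO, PALM, SCG5, GFRA2 and GPR27 did not pass, although a second probe of OLFM1 did. They include PCLO, another active zone scaffold, and SCG5, a chaperone of prohormone convertase 2 in secretory granules. Their bounds ran from 1.28-fold for GPR27 in AMOT knockdown cells to 2.19-fold for PALM in YAP knockdown cells.

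Neuron markers were examined beside both groups. Of 13 markers, 8 had a named tested probe, and 7 were detected on all arrays of the AMOT knockdown, 7 of the YAP knockdown and 4 of the controls. Their summed linear level was 3064 to 3311 in AMOT knockdown cells and 7332 to 8119 in YAP knockdown cells, against 3460 to 3760 in control cells. The sum was thus above the controls in YAP knockdown cells. It was below them in AMOT knockdown cells, although more markers were detected on all arrays there than in controls. A sum of linear levels weighs bright probes most, here and for the other marker groups, and most single markers are not given. Detection of the ion channel and nerve member probes in both knockdowns was fixed by the rule. DCX, ELAVL3, ELAVL4, MAP2 and RBFOX3 had no named tested probe, and none of the 8 was undetected on every array. The part of these markers in the results was not tested.

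Among 10 receptor and signalling genes, ADCY1 was higher in AMOT knockdown cells, PDE6G in YAP knockdown cells, and 9 of the 11 probes did not pass. ADCY1, an adenylyl cyclase stimulated by calcium and calmodulin, had 7.0, 7.28 and 7.11 in AMOT knockdown cells and 6.75, 6.32 and 6.36 in YAP knockdown cells, against 5.69, 5.51 and 5.24 in control cells (0.65, SE 0.15, limma adjusted p = 0.0185). PDE6G, the inhibitory subunit of the cyclic GMP phosphodiesterase of rod photoreceptors, had 7.43, 7.75 and 7.74 in AMOT knockdown cells and 8.05, 7.98 and 8.11 in YAP knockdown cells, against 5.51, 5.76 and 5.61 in control cells. Its difference of -0.41 (SE 0.12, limma adjusted p = 0.0427) lost the call in 11 of 19 alternatives, among them leaving out any single knockdown array. SH2D3C, an adaptor of integrin and receptor signalling, reached at least 2.52-fold and 3.02-fold. ROR2, a receptor for WNT5A, reached at least 1.82-fold and 2.41-fold, and its raw signals overlapped the controls. BAIAP2L2, BTNL9, TMEM178A, LRCH4 and the calcineurin regulator RCAN2 had bounds of 1.33-fold to 2.05-fold.

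The largest group was 15 secreted and matrix genes, of which OSTN passed between the knockdowns and 14 did not. C1QTNF1, a secreted protein with a C1q domain, had 7.99, 7.88 and 7.76 in AMOT knockdown cells and 7.62, 7.64 and 7.51 in YAP knockdown cells, against 5.60, 5.67 and 5.32 in control cells, at least 3.81-fold and 3.13-fold higher. FSTL3, which binds and blocks activin and myostatin, had 7.30, 7.41 and 7.34 in AMOT knockdown cells and 7.10, 7.21 and 7.13 in YAP knockdown cells, against 5.30, 5.79 and 5.30 in control cells. In both genes all AMOT knockdown arrays lay above all YAP knockdown arrays without passing the adjusted test. OSTN, the secreted peptide precursor osteocrin, had 7.34, 7.14 and 6.91 in AMOT knockdown cells and 6.77, 6.44 and 6.68 in YAP knockdown cells, against 5.03, 5.17 and 5.07 in control cells (0.50, SE 0.13, limma adjusted p = 0.0296).

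Several others of this group handle growth factors of the TGF-beta family or build matrix. LTBP2 and LTBP3 belong by name to the family of latent TGF-beta binding proteins, and XYLT1 starts the sugar chains of proteoglycans. Their bounds in both knockdowns were between 1.57-fold and 2.10-fold. CTF1, a cytokine of the interleukin 6 family, reached at least 2.40-fold and 2.19-fold. NELL1, ABI3BP, LGALS3BP, C1QTNF6, CRTAC1, PI15, STRC and the SCO-spondin pseudogene SSPOP had bounds from 1.46-fold to 2.22-fold. STRC has a nearly identical pseudogene, and whether its probe tells them apart is not known here. Of 8 fibroblast and mesenchyme markers, 4 had a named tested probe, and 3 were detected on all arrays of the AMOT knockdown, 3 of the YAP knockdown and 2 of the controls. Their summed linear level was 33826 to 41106 in AMOT knockdown cells and 22987 to 24059 in YAP knockdown cells, against 20484 to 21445 in control cells, and their part in the results was not tested. COL1A2, DCN, PDGFRB and THY1 had no named tested probe.

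Among 7 lipid genes beside PLA2G4C stood TMEM86B, which splits lysoplasmalogens. It had 7.26, 7.61 and 7.20 in AMOT knockdown cells and 7.42, 7.37 and 7.52 in YAP knockdown cells, against 5.44, 5.71 and 5.10 in control cells. PLPP7, of the phospholipid phosphatase family, had 7.46, 7.65 and 7.78 in AMOT knockdown cells and 7.21, 7.42 and 7.40 in YAP knockdown cells, against 4.83, 5.10 and 4.84 in control cells. Neither passed between the knockdowns. LCAT, which esterifies cholesterol on lipoproteins, did, with 6.76, 6.68 and 6.71 in AMOT knockdown cells and 7.16, 7.25 and 7.18 in YAP knockdown cells, against 4.87, 5.06 and 5.05 in control cells (-0.48, SE 0.09, limma adjusted p = 0.00683). The steroid dehydrogenase HSD17B14 was higher in YAP knockdown cells by a similar amount (-0.44, limma adjusted p = 0.028), while the cholesterol transporter NPC1L1 did not pass, with bounds of 1.93-fold and 1.96-fold. GDPD3, a phosphodiesterase of lysophospholipids, had bounds of 1.58-fold and 2.03-fold and did not pass either.

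Of 6 transcription and chromatin genes, IRX4 and FOXA3 were higher in YAP knockdown cells and 4 did not pass. For all tested probes the share higher in YAP knockdown cells was 8.84%. IRX4, a homeobox factor of the heart ventricle, had 6.43, 6.24 and 6.18 in AMOT knockdown cells and 6.83, 7.52 and 7.06 in YAP knockdown cells, against 5.25, 5.48 and 5.51 in control cells (-0.85, SE 0.17, limma adjusted p = 0.00852). FOXA3, a forkhead factor of liver and gut, differed by -0.53 (limma adjusted p = 0.0283) and lost the call in 8 of 19 alternatives. ZBTB20, a zinc finger repressor, had 7.67, 7.34 and 6.94 in AMOT knockdown cells and 7.92, 7.87 and 7.78 in YAP knockdown cells, against 5.50, 5.80 and 5.16 in control cells. Its arrays did not overlap between the knockdowns, and its difference of -0.54 (SE 0.20) missed the threshold (limma adjusted p = 0.0967). The corepressor TLE2, the deacetylase HDAC4 and EBF4 did not pass, with bounds of 1.48-fold to 2.10-fold.

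The 3 muscle genes were ACTA1, MYOZ1 and MSS51. ACTA1, the actin of skeletal muscle thin filaments, had 7.50, 7.50 and 7.20 in AMOT knockdown cells and 6.47, 6.90 and 6.77 in YAP knockdown cells, against 5.19, 5.34 and 5.13 in control cells (0.69, SE 0.14, limma adjusted p = 0.00892). The actin genes are closely alike, and whether the probe sees others of them is not known here. MYOZ1, which binds calcineurin at the Z-disc, and MSS51 had bounds of 1.19-fold to 1.76-fold. Of 6 muscle markers, ACTA1 and MYH3 had a named tested probe, and both were detected on all arrays of both knockdowns and neither on all controls. Their summed linear level was 298 to 352 in AMOT knockdown cells and 184 to 211 in YAP knockdown cells, against 85.9 to 128 in control cells, and DES, MYOG, CKM and TNNT2 had no named tested probe. Since ACTA1 is itself a member, this sum is partly fixed by the rule.

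In the trafficking, cytoskeletal and ciliary group, 3 of 7 genes were higher in YAP knockdown cells and 4 did not pass. By comparison, 8.84% of all tested probes were called higher in YAP knockdown cells. SEC31B, a coat protein of vesicles that leave the endoplasmic reticulum, had 7.35, 7.80 and 7.55 in AMOT knockdown cells and 7.65, 7.27 and 7.81 in YAP knockdown cells, against 5.48, 5.92 and 5.63 in control cells, nearly equal means. TMEM107, a protein of the ciliary transition zone, had 6.25, 6.63 and 6.71 in AMOT knockdown cells and 7.28, 7.26 and 7.02 in YAP knockdown cells, against 5.60, 5.54 and 5.63 in control cells (-0.66, SE 0.13, limma adjusted p = 0.00946). MICAL1, which disassembles actin filaments by oxidation, and CRIP2, a LIM domain protein, each differed by -0.48 (limma adjusted p = 0.0272 and 0.0322). The call for MICAL1 was lost in 9 of 19 alternatives. VPS13D and VPS9D1, of endosomal and organelle membranes, and INSC, which orients the mitotic spindle, did not pass and had bounds of 1.30-fold to 1.75-fold.

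Germline and RNA genes were 5. DQX1, of the DEAH-box helicase family, had 6.79, 6.75 and 6.80 in AMOT knockdown cells and 8.0, 7.43 and 7.92 in YAP knockdown cells, against 5.91, 5.49 and 5.59 in control cells (-1.0, SE 0.16, limma adjusted p = 0.00313). SPOCD1, which in mouse directs DNA methylation of transposons in male germ cells, had 6.90, 7.18 and 7.15 in AMOT knockdown cells and 7.49, 7.41 and 7.51 in YAP knockdown cells, against 4.93, 5.03 and 5.17 in control cells (-0.39, SE 0.11, limma adjusted p = 0.0359). CPEB1, which controls polyadenylation and translation of stored mRNAs, was seen by 2 probes that did not pass, with differences of 0.37 and 0.30. SYCP2, of the synaptonemal complex, and ENDOV, an inosine-specific endonuclease, did not pass and had bounds of 1.27-fold to 1.68-fold.

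Among 6 enzyme, chaperone and mitochondrial genes, ENO4, an enolase of sperm, was higher in AMOT knockdown cells. It had 7.70, 7.85 and 7.60 in AMOT knockdown cells and 6.93, 7.34 and 7.04 in YAP knockdown cells, against 5.06, 5.64 and 5.09 in control cells (0.62, SE 0.17, limma adjusted p = 0.037), a call lost in 7 of 19 alternatives. MAN1C1, a Golgi mannosidase, was higher in YAP knockdown cells (-0.54, limma adjusted p = 0.0361). HSPA2, a heat shock protein abundant in testis, missed the threshold (0.34, limma adjusted p = 0.0766). PYROXD2, RIMKLB and RCC1L did not pass, with bounds of 1.48-fold to 1.85-fold.

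The 3 non-coding RNAs were LINC00921, VESTAR and RFPL3S, and C8orf44 is also annotated as one. LINC00921 had 7.25, 7.03 and 7.03 in AMOT knockdown cells and 6.70, 6.49 and 6.39 in YAP knockdown cells, against 5.87, 5.73 and 5.86 in control cells (0.58, SE 0.11, limma adjusted p = 0.00772). VESTAR reached at least 2.53-fold and 2.16-fold and RFPL3S at least 1.58-fold and 1.57-fold, and neither passed. Of the little-described proteins, ASPHD1, named for its aspartate beta-hydroxylase domain, had the member probe with the largest difference. It had 6.79, 6.98 and 7.10 in AMOT knockdown cells and 8.34, 8.29 and 8.23 in YAP knockdown cells, against 5.46, 5.23 and 5.20 in control cells (-1.33, SE 0.11, limma adjusted p = 0.00013). Its second probe had 7.06, 6.79 and 6.83 in AMOT knockdown cells and 7.63, 7.53 and 6.93 in YAP knockdown cells, against 5.54, 5.60 and 6.31 in control cells. On that probe the knockdowns overlapped, and the difference of -0.47 (SE 0.23) did not pass (limma adjusted p = 0.202). ANKRD29, an ankyrin repeat protein, had 7.99, 8.23 and 8.12 in AMOT knockdown cells and 7.44, 7.73 and 7.47 in YAP knockdown cells, against 5.39, 5.67 and 5.91 in control cells (0.57, SE 0.15, limma adjusted p = 0.0266). YPEL1, a small zinc-binding protein, was higher in YAP knockdown cells (-0.52, limma adjusted p = 0.0297). C8orf44 and TMEM200A did not pass, with bounds of 1.35-fold to 2.06-fold.

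Over all members, 28 of 89 probes (31.5%) differed between the knockdowns, 7 higher in AMOT knockdown cells and 21 higher in YAP knockdown cells, beside the 17.5% of all tested probes given above. Among the 7363 tested probes with a mean knockdown level in the range of the members, 20.2% passed. The median log2 difference was -0.15 for the members and -0.00 for all tested probes, and 61 members did not pass, which does not show that they were equal. The AMOT and YAP knockdown arrays did not overlap for 44 members, 17 with the AMOT knockdown above and 27 with the YAP knockdown above, where 37.7% of all tested probes did not overlap, 18.6% with AMOT and 19% with YAP knockdown above. With 3 arrays per group the count changed when single arrays were left out. It was 18 without AMOT knockdown 1 or without AMOT knockdown 2, and 15, 16 and 17 without YAP knockdown 1, 2 and 3. With each array left out in turn, controls included, it ran from 15 to 28. Leaving out an array also weakens the test.

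**Figure D3:**
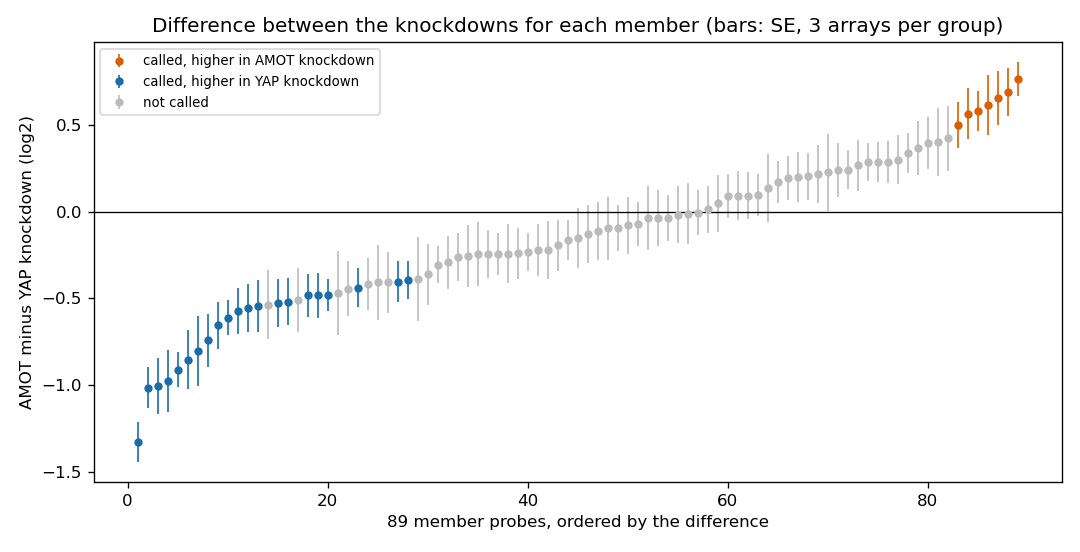
Difference between the knockdowns for each member probe (AMOT minus YAP knockdown, log2, with the standard error of the limma fit as bars), ordered by size. Coloured points passed the adjusted p threshold of 0.05: 7 were higher in AMOT knockdown cells, led by BACE1 at 0.76, and 21 were higher in YAP knockdown cells, led by ASPHD1 at -1.33.

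A second probe of the same gene, not used by the rule, was named for 18 of the genes and tested for 17. The untested one was of CACNG6, among the highest bounds on its member probe, and was detected on 1 AMOT knockdown array, 1 YAP knockdown array and no control. It had 5.61, 5.67 and 5.81 in AMOT knockdown cells and 5.44, 5.39 and 6.37 in YAP knockdown cells, against 5.56, 5.90 and 5.30 in control cells, differences from the control mean of 0.11 and 0.14. The other second probes were often already on in control cells: 11 were detected on all 3 control arrays, 5 on 1 or 2 and 1 on none. In 14 of the 17 both knockdown means lay above the control mean, in 2 both lay below, and LRCH4 was split, with differences from the control of -0.00 in AMOT knockdown cells and 0.19 in YAP knockdown cells. By comparison, 37.6% of all tested probes lay above in both. In 6 of the 17 the difference was at least 1 on the log2 scale in both, as in 2.42% of all tested probes. All 6 knockdown arrays lay above all 3 controls for 12 of the 17, and the median log2 differences from the controls were 1.07 in AMOT knockdown cells and 0.91 in YAP knockdown cells. The gene's second probe lies in the same contrast as the rule, so these values are a description. Between the knockdowns, 6 of the genes called on their member probe had a second tested probe. That of TMEM107 passed (-0.60, SE 0.14, limma adjusted p = 0.0205), whereas those of ADCY1, ANKRD29, ASPHD1, LY6H and SPTBN4 did not (limma adjusted p = 0.0708, 0.142, 0.202, 0.19 and 0.847), with differences of 0.37, 0.41, -0.47, -0.36 and -0.08, the signs of the member probes.

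OLFM1, a secreted olfactomedin of brain, moved most on its second probe, which had 8.68, 8.59 and 8.92 in AMOT knockdown cells and 9.85, 9.57 and 9.56 in YAP knockdown cells, against 5.85, 6.56 and 5.97 in control cells. Between the knockdowns that second probe differed by -0.93 (SE 0.19, limma adjusted p = 0.00851), and the arrays did not overlap. The member probe of OLFM1 had 6.84, 6.61 and 6.83 in AMOT knockdown cells and 6.97, 7.15 and 7.08 in YAP knockdown cells, against 5.30, 5.32 and 5.12 in control cells. KRCC1 was on in control cells by its second probe, with 8.97, 9.31 and 9.40 in AMOT knockdown cells and 8.69, 8.86 and 8.96 in YAP knockdown cells, against 7.69, 8.04 and 7.90 in control cells. PALM, the membrane protein paralemmin, likewise had 10.48, 10.51 and 10.38 in AMOT knockdown cells and 10.75, 10.78 and 10.56 in YAP knockdown cells, against 9.31, 9.13 and 8.93 in control cells. On all 3 second probes both knockdowns lay above the controls, and those of KRCC1 and PALM were detected on all 3 control arrays, so these genes were not silent there.

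RIMKLB, an enzyme that joins glutamate to N-acetylaspartate, and RCC1L, a mitochondrial ribosome factor, ran against their member probes. The second probe of RIMKLB had 9.54, 9.49 and 9.71 in AMOT knockdown cells and 9.62, 9.57 and 9.39 in YAP knockdown cells, against 10.07, 10.13 and 10.25 in control cells. That of RCC1L had 7.09, 7.19 and 7.18 in AMOT knockdown cells and 6.73, 7.33 and 7.17 in YAP knockdown cells, against 8.0, 7.32 and 8.05 in control cells. For these 2 genes the member probe was above the controls and the second probe's means were below them, and which transcripts each probe sees is not given in the sources used here.

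**Figure D4:**
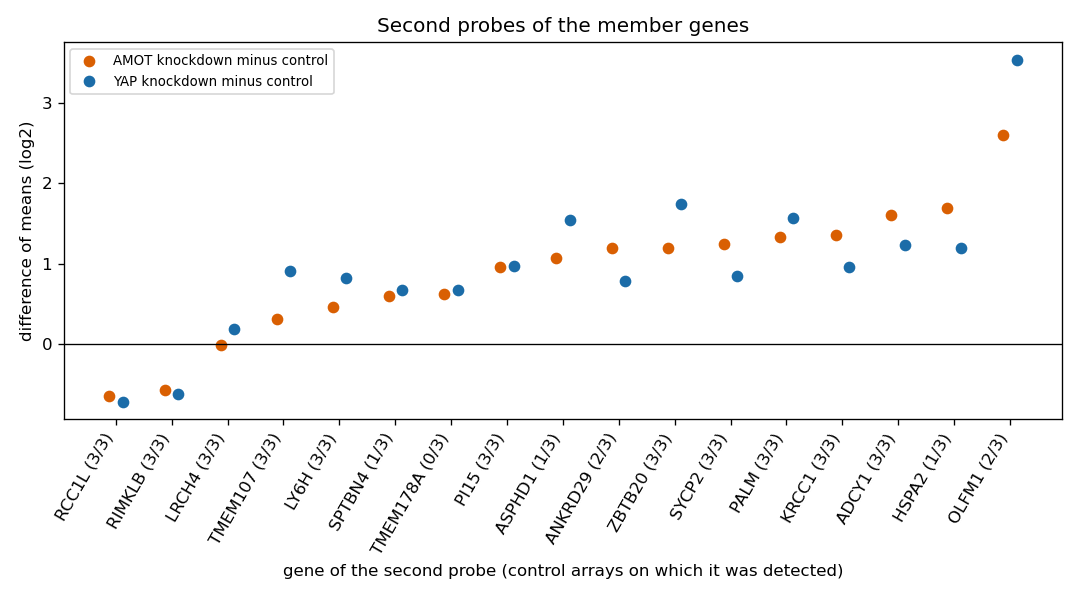
Difference from the control mean (log2) in AMOT knockdown cells and in YAP knockdown cells for the second tested probe of 17 member genes, with the number of control arrays that detected it in brackets. OLFM1 stands highest at 2.60 in AMOT knockdown cells and 3.53 in YAP knockdown cells, and RIMKLB and RCC1L lie below 0 in both.

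Gene families were defined by the start of their symbols. Of all named probes after exclusions, 0.612% were members. The share was 4 of 95 probes (4.21%) for ion channels and junction pores, those of CACNA2D3, CACNG6, SCN3B and SCN9A, and 6 of 154 (3.90%) for cell surface receptors, those of GPR27, HTR3A, ROR2, UNC5A and the 2 probes of PAQR6. It was 3 of 351 for transcription regulators and 3 of 373 for signalling enzymes. No member was among 117 probes of secreted ligands and proteases or 367 probes of ubiquitin and proteolysis genes, as these symbols define them. GDF15, a symbol of the ligand family, met the detection rule but was left out by symbol. The members CTF1, OSTN, FSTL3 and BACE1 have symbols outside these families, so the absence does not cover all secreted proteins or proteases. Families also differed in how many probes were silent in control cells and so could be switched on: 18 of the 95 channel probes and 20 of the 154 receptor probes were undetected on all controls, against 6 of the 367 ubiquitin probes and 583 of all 14540. In total, 22 of the 87 genes fell in a list and 65 in none.

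The genes did not lie in 1 place. All 87 were found in the GRCh38.p14 gene table, on 20 chromosomes, 82 of them protein-coding, 4 long non-coding RNAs and 1 a transcribed pseudogene. The closest neighbours were FSTL3 (chr19:676392-683385) and PALM (chr19:708935-748329), 25550 bases apart, followed by LGALS3BP (chr17:78971255-78979923) and C1QTNF1 (chr17:79022934-79049788), 43011 bases apart.

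Start regions were compared by their content of CpG, which is high at the promoters of most broadly expressed genes. A window of 300 bases was found for 61 member genes, taking the first listed where there were several, and for 9 of them it was not placed on the first base of the gene. The CpG ratio was over 0.6 in 57.4% of them, against 83.5% of 9347 named genes and 58.2% of 256 other named genes with every probe undetected on all controls. These shares were not tested.

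The 8 motifs, searched on both strands, were found in these windows as follows. TATAAA, the TATA box, was in 13.1% of member windows, against 5.95% of named and 12.5% of other control-silent genes. CATTCC, the core bound by TEAD factors, was in 8.20%, those of ABI3BP, ACTA1, CRIP2, ERC2 and TLE2, against 10.4% of named and 11.3% of control-silent genes. TGANTCA, the AP-1 element, was in 8.20%, against 4.26% and 7.81%, and CAGCACC was in 8.20%, against 7.23% and 8.59%. GGGCGG was in 60.7%, against 70.1% and 57.8%, and CACGTG, the E-box of MYC and USF factors, in 4.92%, against 10.4% and 7.42%. TTTCACTT, part of the interferon response element, was in 1.64%, against 1.13% and 1.56%. TGACGTCA, the cyclic AMP response element, was in none of the 61, against 3.48% and 2.34%. With 61 windows a motif in 5 of them stands for 8.20%, and no share was tested.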

How the data were processed

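Total RNA was measured on Illumina bead arrays, 3 AMOT knockdown, 3 YAP knockdown and 3 control samples. The deposited table gives, per the file headers, a bead intensity that the authors neither background-corrected nor normalized, and a detection p-value for each probe and array. The authors' series matrix holds intensity values normalized by a method not given in the sources used here, and was used for probe selection and as an alternative. Arrays carry no depth, and their number limits the precision.

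Limma 3.58.1 in R 4.3.3 was used for a normal-exponential background correction, with negative controls inferred from detection p-values and an offset of 16, and for quantile normalization of the log2 values. Probes with a detection p under 0.05 on at least 3 arrays were tested (22375). A model with a mean per group (6 residual and 3.54 prior degrees of freedom) gave limma's moderated 2-sided test of AMOT minus YAP knockdown, adjusted by the Benjamini-Hochberg method over all tested probes at 0.05. The same model gave the tests of AMOT and YAP1 against the controls. The procedure was tested on simulated data. No pairing by replicate number was seen. Deviations of same-numbered samples correlated at -0.13 to 0.10 and those of unlike-numbered samples at -0.12 to 0.12. Such weak correlations cannot show that the samples were not matched.

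The member genes and all lists were chosen with earlier results of these data known. Genes named with values are the 20 highest lower bounds, up to 8 differences in each direction, probes next to the thresholds, members of lists with 3 or more members, and members with a second tested probe (up to 8 by mean level); the genes of the role groups outside this rule, such as LCAT and TMEM107, were chosen after their values were seen. Symbols came from the platform annotation, positions and promoters from RefSeq. Alternatives covered background correction, normalization, filters, thresholds, a replicate block and leaving out each array.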

Additional observations from a re-analysis of the deposited data

Results flagged for a closer look

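Differences between the effects of the 2 hairpins, tested directly as AMOT minus YAP knockdown with limma (log2), were found for 15 members named by the rule. On the side of the YAP knockdown these were ASPHD1 at -1.33, UNC5A at -1.02, DQX1 at -1.0, SPTBN4 at -0.98, SCN3B at -0.91, IRX4 at -0.85, ERC2 at -0.80 and TMEM35A at -0.74. On the side of the AMOT knockdown these were BACE1 at 0.76, ACTA1 at 0.69, ADCY1 at 0.65, ENO4 at 0.62, LINC00921 at 0.58, ANKRD29 at 0.57 and OSTN at 0.50. All 3 arrays of the higher knockdown lay above all 3 of the other for each of these genes, and the normalized levels of both knockdowns lay above the controls, as the choice of members largely fixes. On raw signals SPTBN4 overlapped the controls. Second probes of ASPHD1, SPTBN4, ADCY1 and ANKRD29 differed by -0.47, -0.08, 0.37 and 0.41, and none of them passed.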

How the results depend on the processing

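The number of members depended on the thresholds. It was 56 with controls above 0.10, 180 with controls above 0.01, 172 with knockdowns under 0.05, 9 with knockdowns under 0.001, and 92 to 127 when 1 array was left out. It was 101 with the excluded symbols put back and 71 under a common normalized limit, an alternative chosen after seeing the data. The median of the smaller lower-bound fold, 1.62, was 1.21 without background correction and 1.40 with an offset of 50. It was 1.71 under median scaling and 1.60 to 1.67 when 1 array was left out.

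The count of members that differed between the knockdowns, 28, was 18 with no filter on detection and 20 to 30 under the other alternatives that kept all arrays or all knockdown arrays. It was 15 to 28 when 1 array was left out. A replicate block gave 26, 7 higher in AMOT knockdown cells and 19 higher in YAP knockdown cells. A random replicate block gave 28, and whether the replicate numbers pair the samples is not known. Of the named members PDE6G, MICAL1, FOXA3, ENO4, OSTN, ANKRD29, ERC2 and ADCY1 lost the call in 11, 9, 8, 7, 7, 5, 4 and 3 of 19 alternatives, and ZBTB20, HSPA2 and OLFM1 gained it in 3, 2 and 1. No named difference that passed changed its direction. With dim signals, background and offset set the size of every bound, and the cause of the lost calls was not tested.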

Other observations

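Few named probes went from detected in control cells to undetected in both knockdowns. BCL2L11, the BH3-only apoptosis inducer BIM, had log2 levels of 5.18, 4.97 and 5.35 in AMOT knockdown cells and 5.29, 5.13 and 5.11 in YAP knockdown cells, against 7.14, 6.68 and 7.40 in control cells. ABL1, the tyrosine kinase, had 5.73, 5.82 and 5.63 in AMOT knockdown cells and 5.05, 5.27 and 5.60 in YAP knockdown cells, against 6.50, 7.08 and 7.04 in control cells. The others were the probes of DNAAF5, MYCBP and ATP5MK. All 5 were chosen by detection in these groups, and no test was made.

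Other probes came on in 1 knockdown and stayed undetected on all arrays of the other knockdown and of the controls: 19 in AMOT knockdown cells and 13 in YAP knockdown cells, after the same exclusions. MAL2, a membrane protein of epithelial transcytosis, had 7.53, 7.74 and 7.86 in AMOT knockdown cells and 4.99, 4.86 and 4.97 in YAP knockdown cells, against 4.98, 5.42 and 5.18 in control cells. SST, the precursor of the peptide hormone somatostatin, had 7.99, 7.97 and 7.76 in YAP knockdown cells and 5.04, 5.54 and 5.14 in AMOT knockdown cells, against 5.20, 5.17 and 5.20 in control cells. These genes were named after their values were seen.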
